A study of Mus musculus with 9 samples.

Results

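Mouse embryonic fibroblasts (MEFs) exposed to 2 intensities of hyperosmotic stress were examined for 10 genes of the YAP/TAZ pathway. The genes were taken by symbol from a deposited table of 35275 genes, and were chosen with earlier results of these data known. They were the coactivators Yap1 and Wwtr1 (TAZ), their DNA-binding partner Tead1, the target genes Ctgf, Cyr61 and Ankrd1, and the scaffolds and kinases Amotl1, Amotl2, Lats1 and Lats2. Ctgf and Cyr61 are the symbols of the table for the genes now called Ccn2 and Ccn1. The cells were a wild type MEF line of the C57Bl/6 strain, and the sources name no transgene or deletion in any group. At about 80% confluence they stayed in iso-osmolar medium of 300 mOsm, or received medium with 200 mM sucrose (500 mOsm, low intensity) or 300 mM sucrose (600 mOsm, high intensity) for 3 h. Each treatment was sequenced as 3 libraries of poly-A RNA, 9 in all. The sources do not say whether the 3 libraries came from separate cultures, so the p-values measure only the spread between these libraries, which may be technical.

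YAP and TAZ have no DNA-binding domain of their own and reach promoters and enhancers through the TEAD factors. The Hippo kinases LATS1 and LATS2 phosphorylate them, which keeps them in the cytoplasm, and the angiomotin family proteins AMOTL1 and AMOTL2 bind them outside the nucleus. LATS2 and AMOTL2 are themselves known target genes, so that the pathway feeds back on its own activity. In fibroblasts the pathway reads cell density, matrix stiffness and the actin skeleton. Both nuclear entry and LATS activity can change when cells shrink in hyperosmotic medium, without a change of mRNA. The measurements here are of mRNA only.

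The promoters of 8 of the 10 genes were present in the RefSeq windows used here (GRCm38.p6, from 250 bases before to 50 bases after each start site). The TEAD motif, the letters GGAATG on either strand (CATTCC on the other), was searched in each window. It was present for 6 of the 8 genes, Yap1, Wwtr1, Cyr61, Ankrd1, Amotl2 and Lats2, and absent from these windows for Amotl1 and Lats1. Of all 32851 windows, 14.7% held it, and 16.6% of the 27025 genes had at least 1 such window. The promoters of Ctgf and Tead1 were not analysed here. The lines that follow give the 250 bases before the start of Yap1 and of the 3 genes that rose at 500 mOsm and had the motif upstream of the start, each 5′ to 3′ on the strand of its gene, with the motif in capitals.
Cyr61: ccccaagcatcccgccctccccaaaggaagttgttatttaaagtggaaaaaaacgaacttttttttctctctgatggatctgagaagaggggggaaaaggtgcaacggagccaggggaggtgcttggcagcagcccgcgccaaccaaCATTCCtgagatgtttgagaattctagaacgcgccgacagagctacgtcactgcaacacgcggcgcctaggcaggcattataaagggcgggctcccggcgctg
Ankrd1: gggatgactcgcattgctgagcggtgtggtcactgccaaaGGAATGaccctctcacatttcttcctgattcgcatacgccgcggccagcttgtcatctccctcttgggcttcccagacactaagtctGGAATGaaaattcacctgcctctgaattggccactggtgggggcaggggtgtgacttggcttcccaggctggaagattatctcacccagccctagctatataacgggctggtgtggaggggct
Amotl2: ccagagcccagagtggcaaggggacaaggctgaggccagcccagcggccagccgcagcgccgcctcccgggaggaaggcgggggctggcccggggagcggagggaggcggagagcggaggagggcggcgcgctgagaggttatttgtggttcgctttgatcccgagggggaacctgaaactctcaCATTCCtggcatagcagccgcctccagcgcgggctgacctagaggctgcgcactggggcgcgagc
Yap1: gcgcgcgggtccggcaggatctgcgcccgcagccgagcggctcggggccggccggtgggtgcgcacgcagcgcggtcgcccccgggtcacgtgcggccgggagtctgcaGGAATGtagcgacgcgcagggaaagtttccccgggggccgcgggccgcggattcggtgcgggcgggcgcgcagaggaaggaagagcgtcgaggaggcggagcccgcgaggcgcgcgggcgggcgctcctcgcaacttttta
The window of Cyr61 is chr3:145649986-145650235 (minus strand), and its motif lies on the opposite strand from the gene, at base -103 from the start site. That of Ankrd1 is chr19:36119845-36120094 (minus strand) and holds 2 copies, at -210 and -123. The window of Amotl2 is chr9:102717554-102717803 (plus strand), with the motif on the opposite strand at -65. Its RefSeq start lies 1132 bases inside the span of the gene, so this window is within the gene. The window of Yap1 is chr9:8004597-8004846 (minus strand), with the motif at -141. In Wwtr1 the single copy lay at -136 or -170, depending on which of 2 RefSeq starts was used. In Lats2 it lay at base 5 after a start, and the window of the other Lats2 start had none. In the GENCODE M21 annotation, the starts of Ankrd1 (255 bases), Amotl1 (30056) and Lats2 (12265 and 23970) also lie inside the span of their genes. A match to these letters is a description of the window and not evidence of binding.

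All 10 genes were detected in every library and passed the filter on low counts, with 13082 genes tested in all. The libraries held between 21716042 and 26740832 counts on genes, and the sparsest of the 10 genes, Amotl1, still had 489 to 755 counts per library. A count of 3, taken as a floor, corresponded to 0.112 to 0.138 CPM, the count after scaling libraries to one total, which covers counting error only. Levels are given as FPKM (fragments per kilobase of gene, scaled to the library total), the only scale here on which genes can be compared with each other. Differences are log2 fold changes of counts from edgeR's quasi-likelihood test, fitted on all 9 libraries. They are given with their standard error (SE) and with p-values adjusted by the Benjamini-Hochberg method over all genes tested, with 0.05 as the threshold. In bulk RNA, fewer cells of a type and less RNA per cell cannot be told apart, nor can less transcription and faster decay.

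The 10 genes moved in different directions at 500 mOsm and mostly fell at 600 mOsm. At 500 mOsm against iso-osmolar medium, 4 genes were called higher (Cyr61, Ankrd1, Amotl2 and Lats2), 2 lower (Ctgf and Lats1), and 4 did not pass. Of all genes tested, 13.2% were called higher and 14.8% lower in this comparison. The median log2 fold change of the 10 was 0.08, against 0.01 over all genes. At 600 mOsm against iso-osmolar medium, 1 gene was called higher (Amotl2) and 7 lower, where 15.1% of all genes were called higher and 20.0% lower, and the median was -0.45 against 0.01 over all genes. At 600 against 500 mOsm, all 10 were called lower and 0 higher, where 11.9% of all genes were called higher and 17.2% lower. The 10 log2 fold changes of this comparison lay between -1.26 and -0.38, with a median of -0.58 against 0.01 over all genes. Both comparisons with iso-osmolar medium use the same 3 control libraries, and the comparison of the treated groups uses the libraries of both, so the 3 sets of values are not independent of each other.

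**Figure D1:**
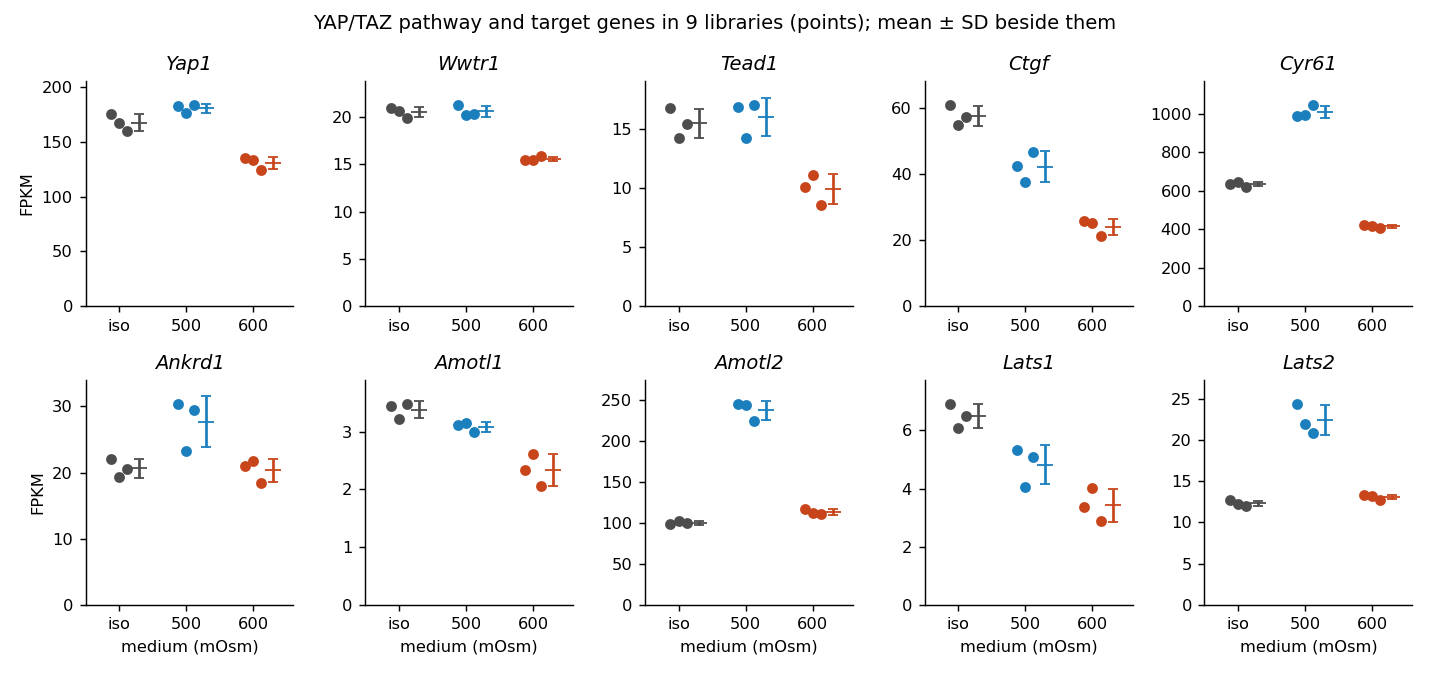
FPKM of each of the 10 genes (vertical axes, each starting at 0 with its own scale) in the 3 libraries of each medium (horizontal axis, iso-osmolar or mOsm), with points for libraries and bars for the mean ± SD (n = 3). Cyr61, Ankrd1, Amotl2 and Lats2 peak at 500 mOsm, while Ctgf and Lats1 step down from iso-osmolar medium to 500 and on to 600 mOsm.

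**Figure D2:**
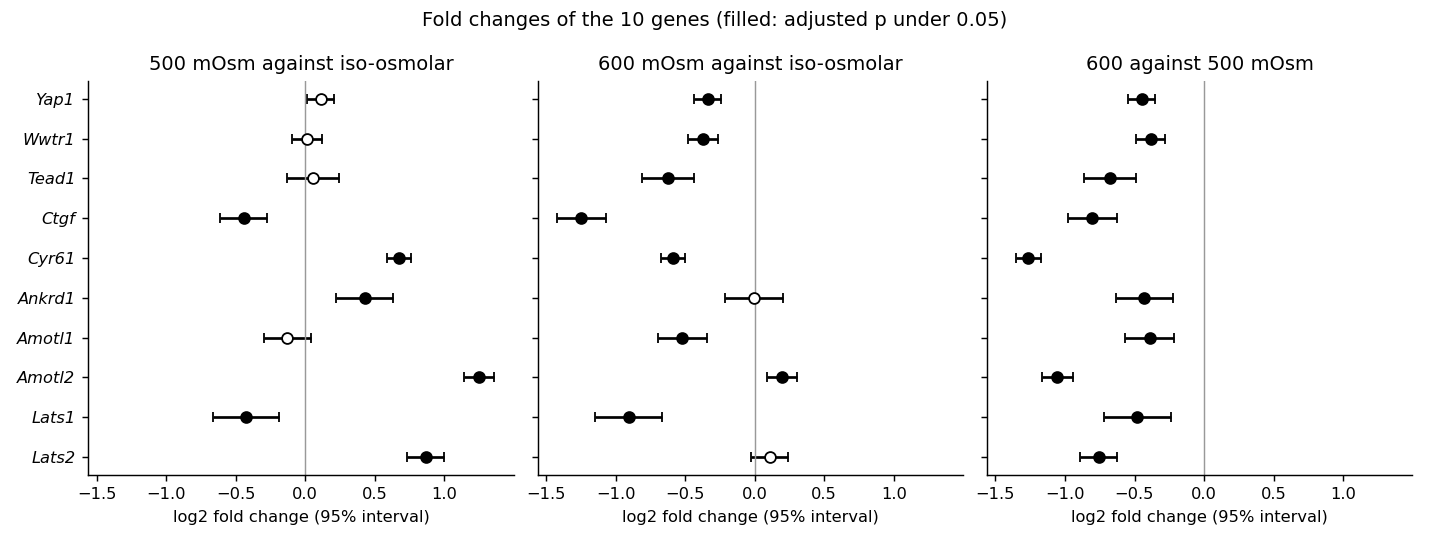
Log2 fold changes of the 10 genes (horizontal axes) in the 3 comparisons, with 95% confidence intervals from edgeR's quasi-likelihood fit as bars and filled points where the adjusted p was under 0.05. All 10 points lie below 0 in the comparison of 600 with 500 mOsm, and in the comparison of 500 mOsm with iso-osmolar medium they lie on both sides.

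The levels of the 10 genes spanned a wide range, and the order of the genes changed little between treatments. In iso-osmolar medium the order from the highest mean FPKM to the lowest was Cyr61, Yap1, Amotl2, Ctgf, Ankrd1, Wwtr1, Tead1, Lats2, Lats1 and Amotl1. Of the 9 neighbouring pairs in that order, only Ankrd1 and Wwtr1 overlapped between their libraries. At 500 mOsm Amotl2 stood above Yap1, and Lats2 moved above Wwtr1 and Tead1. The ranges of Ankrd1 and Lats2, and of Lats2 and Wwtr1, overlapped there. At 600 mOsm Yap1 again stood above Amotl2, Lats2 stayed above Tead1, and the ranges of Ctgf and Ankrd1 overlapped.

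Among the coactivators and their partner, mRNA was close to the control level at 500 mOsm and lower at 600 mOsm. Yap1 (chromosome 9, 7931999 to 8004596, minus strand, mm10) encodes the coactivator that gives the pathway its name. Its FPKM was 175, 167 and 160 in the iso-osmolar libraries, 182, 176 and 183 at 500 mOsm and 135, 133 and 124 at 600 mOsm. The 600 mOsm libraries were all below the others, and the 500 mOsm libraries lay just above the iso-osmolar ones. The log2 fold change was 0.11 at 500 mOsm (SE 0.045, adjusted p = 0.0855 by edgeR's quasi-likelihood test, 95% interval 0.01 to 0.21), which did not pass. At 600 mOsm it was -0.34 against iso-osmolar medium (SE 0.0451, adjusted p = 0.000109) and -0.45 against 500 mOsm (SE 0.0452, adjusted p = 1.12e-05), both in edgeR. The exons of Yap1 share 116 bases with those of an antisense gene, Gm20416, which had 0 to 8 counts per library.

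Wwtr1 (chromosome 3, 57455649 to 57575910, minus strand), which encodes TAZ, was much the less abundant coactivator mRNA. Its FPKM was 21.0, 20.7 and 19.9 in iso-osmolar medium, 21.3, 20.2 and 20.3 at 500 mOsm and 15.5, 15.5 and 15.9 at 600 mOsm. Iso-osmolar and 500 mOsm libraries overlapped, and the 600 mOsm libraries were below them all. The log2 fold change at 500 mOsm was 0.01 (95% interval -0.10 to 0.12, adjusted p = 0.912 in edgeR), a value whose sign changed in 3 alternative fits. At 600 mOsm Wwtr1 fell by 0.38 on the log2 scale, against iso-osmolar medium (adjusted p = 9.79e-05 in edgeR) as well as against 500 mOsm (adjusted p = 8.66e-05 in edgeR). Yap1 made up 88.7% to 90.0% of the summed FPKM of the coactivator pair in every library.

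Tead1 (chromosome 7, 112679318 to 112906807, plus strand) encodes a TEAD factor, through which YAP and TAZ bind DNA. Its FPKM was 16.7, 14.2 and 15.4 in iso-osmolar medium, 16.8, 14.2 and 17.0 at 500 mOsm and 10.0, 11.1 and 8.58 at 600 mOsm. The first 2 groups overlapped almost fully, and the 600 mOsm libraries lay below both. The log2 fold change was 0.05 at 500 mOsm (95% interval -0.13 to 0.24, adjusted p = 0.702 in edgeR). At 600 mOsm it was -0.62 against iso-osmolar medium (SE 0.0869, adjusted p = 0.000151 in edgeR) and -0.68 against 500 mOsm (SE 0.0868, adjusted p = 8.52e-05 in edgeR).

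Among the target genes, Cyr61 and Ctgf moved apart at 500 mOsm and both fell at 600 mOsm. Cyr61 (chromosome 3, 145646971 to 145649985, minus strand) encodes a secreted matricellular protein that binds integrins, and is one of the most used readouts of YAP activity. Its FPKM was 636, 644 and 622 in iso-osmolar medium, 990.4, 992 and 1045 at 500 mOsm and 422, 417 and 408 at 600 mOsm. The groups did not overlap, with 500 mOsm highest and 600 mOsm lowest. Cyr61 rose at 500 mOsm by a log2 fold change of 0.67 (SE 0.0403, adjusted p = 9.3e-08 in edgeR). At 600 mOsm it was below the iso-osmolar level by -0.59 (SE 0.0403, adjusted p = 3.44e-07) and below the 500 mOsm level by -1.26 (SE 0.0407, adjusted p = 3.37e-10), both in edgeR. It was the only one of the 10 genes that was called higher at 500 mOsm and lower at 600 mOsm against the same controls.

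Ctgf (chromosome 10, 24595442 to 24598683, plus strand) encodes a related matricellular protein of the same family, which promotes matrix deposition. Its FPKM was 60.9, 54.7 and 57.2 in iso-osmolar medium, 42.4, 37.6 and 46.8 at 500 mOsm and 25.7, 25.0 and 21.1 at 600 mOsm. The groups did not overlap and lay in the order of osmolarity, the highest level being that of iso-osmolar medium. The log2 fold change was -0.44 at 500 mOsm (SE 0.0784, adjusted p = 0.000845 in edgeR) and -1.25 at 600 mOsm (SE 0.0805, adjusted p = 2.13e-07 in edgeR), the largest fall of the 10 genes against iso-osmolar medium. Between 600 and 500 mOsm it was -0.80 (SE 0.0804, adjusted p = 1.09e-05 in edgeR). As a description, the FPKM ratio of Cyr61 to Ctgf was 10.5 to 11.8 in iso-osmolar medium, 22.3 to 26.4 at 500 mOsm and 16.4 to 19.3 at 600 mOsm. The exons of Ctgf share 665 bases with an antisense gene, Gm15270, which had at most 1 count per library.

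Ankrd1 (chromosome 19, 36111965 to 36119844, minus strand) encodes an ankyrin repeat protein best known from striated muscle, and is a common YAP target gene in other cells. Its FPKM was 22.1, 19.3 and 20.6 in iso-osmolar medium, 30.4, 23.3 and 29.4 at 500 mOsm and 20.9, 21.7 and 18.4 at 600 mOsm. The 500 mOsm libraries were above all others, with 1 of them close to the highest control, and the 600 mOsm libraries lay among the controls. Ankrd1 rose at 500 mOsm by a log2 fold change of 0.43 (SE 0.0941, adjusted p = 0.00413 in edgeR) and was lower at 600 than at 500 mOsm by -0.43 (SE 0.094, adjusted p = 0.0043 in edgeR). At 600 mOsm against iso-osmolar medium its log2 fold change was 0.00 to 2 decimals, with a 95% interval from -0.21 to 0.20 (adjusted p = 0.985 in edgeR).

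The angiomotin family members differed from each other in level and in response. Amotl2 (chromosome 9, 102716672 to 102733418, plus strand) encodes a scaffold that binds YAP and activates LATS kinases, and is a target gene. Its FPKM was 97.8, 102 and 99.8 in iso-osmolar medium, 245, 243 and 224 at 500 mOsm and 117, 112 and 110.3 at 600 mOsm. The groups did not overlap, and the 500 mOsm libraries stood far above the other 6. The rise at 500 mOsm was the largest of the 10 genes, a log2 fold change of 1.25 or 2.38-fold (SE 0.051, adjusted p = 2.81e-09 in edgeR). At 600 mOsm Amotl2 was still above iso-osmolar medium by 0.19 (SE 0.0505, adjusted p = 0.00998 in edgeR), and it was below 500 mOsm by -1.05 (SE 0.0508, adjusted p = 1.51e-08 in edgeR). Without the first 600 mOsm library the difference from iso-osmolar medium was 0.17 and missed the threshold (adjusted p = 0.0501 in edgeR).

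Amotl1 (chromosome 9, 14541966 to 14615483, minus strand) encodes a scaffold of the same family and had the lowest level of the 10 genes. Its FPKM was 3.44, 3.22 and 3.48 in iso-osmolar medium, 3.12, 3.15 and 2.99 at 500 mOsm and 2.34, 2.61 and 2.05 at 600 mOsm. The groups did not overlap, but iso-osmolar and 500 mOsm libraries lay close to each other. The log2 fold change at 500 mOsm was -0.13 (95% interval -0.30 to 0.04, adjusted p = 0.264 in edgeR). At 600 mOsm it was -0.52 against iso-osmolar medium (SE 0.0802, adjusted p = 0.000335 in edgeR) and -0.39 against 500 mOsm (SE 0.0802, adjusted p = 0.00281 in edgeR).

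The LATS kinases, which phosphorylate YAP and TAZ, also moved apart. Lats2 (chromosome 14, 57642077 to 57758388, minus strand) had an FPKM of 12.6, 12.3 and 12.01 in iso-osmolar medium, 24.4, 21.95 and 20.8 at 500 mOsm and 13.3, 13.2 and 12.7 at 600 mOsm. Its level peaked at 500 mOsm, and at 600 mOsm it lay just above the iso-osmolar libraries without overlap. Lats2 rose at 500 mOsm by a log2 fold change of 0.87 or 1.82-fold (SE 0.0613, adjusted p = 4.03e-07 in edgeR) and was lower at 600 than at 500 mOsm by -0.76 (SE 0.0611, adjusted p = 1.65e-06 in edgeR). At 600 mOsm against iso-osmolar medium its value was 0.11 (95% interval -0.03 to 0.24, adjusted p = 0.201 in edgeR). In the GENCODE M21 annotation Lats2 shares 2955 exon bases with a protein-coding gene on the same strand, Gm49361, which was not analysed here. The span of Lats2 in that annotation reaches down only to 57689662, against 57642077 in the deposited table. Whether the shared bases belong to the gene as it was counted is thus not known. How reads on the shared bases were counted is not given in the sources used here, so the values of Lats2 are uncertain to that extent.

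Lats1 (chromosome 10, 7681209 to 7716458, plus strand) had an FPKM of 6.92, 6.09 and 6.49 in iso-osmolar medium, 5.31, 4.07 and 5.10 at 500 mOsm and 3.38, 4.02 and 2.89 at 600 mOsm. No groups overlapped, though the highest 600 mOsm library almost reached the lowest 500 mOsm library. The log2 fold change was -0.43 at 500 mOsm (SE 0.109, adjusted p = 0.0103 in edgeR) and -0.91 at 600 mOsm (SE 0.112, adjusted p = 5.52e-05 in edgeR). Between 600 and 500 mOsm it was -0.48 (SE 0.112, adjusted p = 0.00658 in edgeR). Lats1 and Ctgf were thus the genes called lower in each of the 3 comparisons.

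The balance within each pair of related genes was compared within libraries as an FPKM ratio, with an exact two-sided permutation test of 3 against 3 libraries, whose smallest possible p is 0.1. The 9 comparisons were adjusted together, so none could pass 0.05. The ratio of Amotl2 to Amotl1 was 28.4, 31.8 and 28.7 in iso-osmolar medium, 78.4, 77.0 and 74.9 at 500 mOsm and 49.9, 42.8 and 53.7 at 600 mOsm. The log2 ratio differed from iso-osmolar medium by 1.38 at 500 mOsm and by 0.72 at 600 mOsm, and by -0.66 between 600 and 500 mOsm (exact p = 0.1 and adjusted p = 0.15 in each case). No library of one treatment reached the range of another.

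The ratio of Lats2 to Lats1 was 1.83, 2.01 and 1.85 in iso-osmolar medium, 4.59, 5.40 and 4.08 at 500 mOsm and 3.93, 3.28 and 4.41 at 600 mOsm. Both treated groups were above the controls, by a log2 difference of 1.30 at 500 mOsm and 1.02 at 600 mOsm (exact p = 0.1, adjusted p = 0.15 for each), and they overlapped with each other (difference -0.28, exact p = 0.2). The higher ratio at 500 mOsm combined a rise of Lats2 with a fall of Lats1, whereas at 600 mOsm only the fall of Lats1 had passed the test. The ratio of Wwtr1 to Yap1 stayed between 0.111 and 0.128 in all 9 libraries. In each 500 mOsm library it lay below the iso-osmolar range (adjusted p = 0.15 by the same exact test). Its log2 differences were -0.10 at 500 mOsm (exact p = 0.1) and -0.04 at 600 mOsm (exact p = 0.5) against iso-osmolar medium, and 0.06 between 600 and 500 mOsm (exact p = 0.5).

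**Figure D3:**
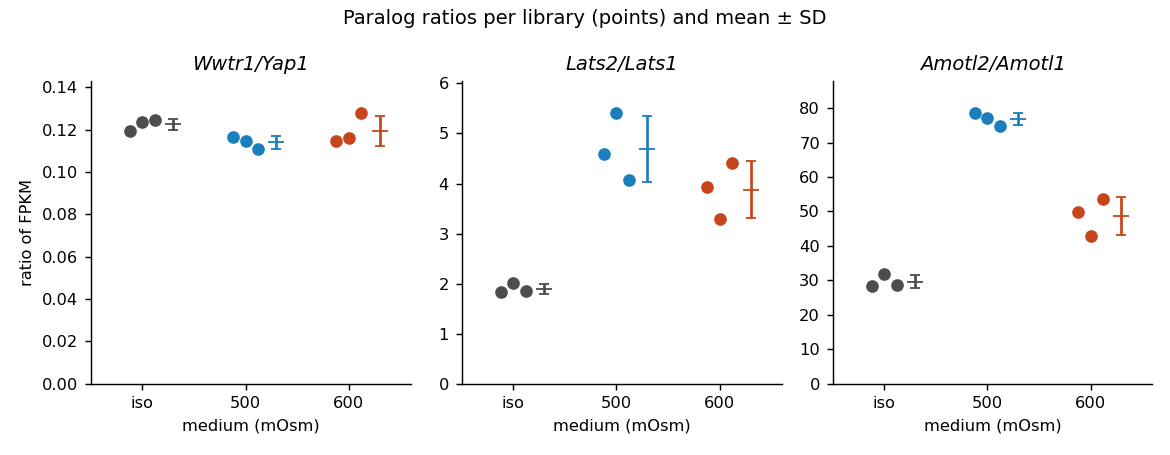
FPKM ratio within each pair of related genes (vertical axes, each starting at 0 with its own scale) in the 9 libraries by medium (horizontal axis, mOsm), with points for libraries and bars for the mean ± SD (n = 3). Amotl2 to Amotl1 and Lats2 to Lats1 lie above the iso-osmolar range in all 6 treated libraries, while Wwtr1 to Yap1 stays between 0.111 and 0.128.

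Length and base composition of the transcripts moved with part of these values. The 10 genes are longer than the median gene tested (3027 bases of exon) except Ctgf, Cyr61 and Ankrd1. Tead1 has 9964 bases, Amotl1 8957 and Lats1 7212, and the GC content of Lats1 (43.0%), Wwtr1 (43.9%) and Yap1 (45.2%) lies below the median of 50.2%. The fit was repeated with an offset per gene and library for GC content and length, an alternative chosen after the data were seen. The median log2 fold change over all genes with these offsets was 0.02 at 500 mOsm, 0.02 at 600 mOsm and 0.01 between them.

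With the offsets, the falls at 600 mOsm against iso-osmolar medium became smaller for the long transcripts. Yap1 went from -0.34 to -0.17 (adjusted p = 0.0212 in edgeR), Tead1 from -0.62 to -0.30 (adjusted p = 0.000801 in edgeR) and Amotl1 from -0.52 to -0.24 (adjusted p = 0.0113 in edgeR). Wwtr1 went from -0.38 to -0.24 (adjusted p = 0.0106 in edgeR) and Lats1 from -0.91 to -0.68 (adjusted p = 2.59e-06 in edgeR). The same 5 genes were thus still called lower, with smaller values. Ctgf (-1.24) and Cyr61 (-0.64) were nearly as without offsets, and Lats2 passed the test as higher (0.25, adjusted p = 0.00268 in edgeR). At 600 against 500 mOsm, Amotl1 no longer passed (-0.14, adjusted p = 0.14 in edgeR), and Tead1 went from -0.68 to -0.39 and Lats1 from -0.48 to -0.30. At 500 mOsm Yap1 passed as slightly higher (0.16, adjusted p = 0.0278 in edgeR). In all, the offsets left 5 genes called higher and 2 lower at 500 mOsm, where 17.5% and 16.7% of all genes were so called. They left 2 higher and 7 lower at 600 mOsm against iso-osmolar medium (18.4% and 19.2% of all genes), and 0 higher and 9 lower at 600 against 500 mOsm (14.9% and 16.8% of all genes). For the pair of angiomotin genes, the difference between their log2 fold changes at 600 mOsm against iso-osmolar medium was 0.71 without offsets and 0.47 with them. Whether RNA length or composition acted on these values through the samples or through the libraries was not tested.

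**Figure D4:**
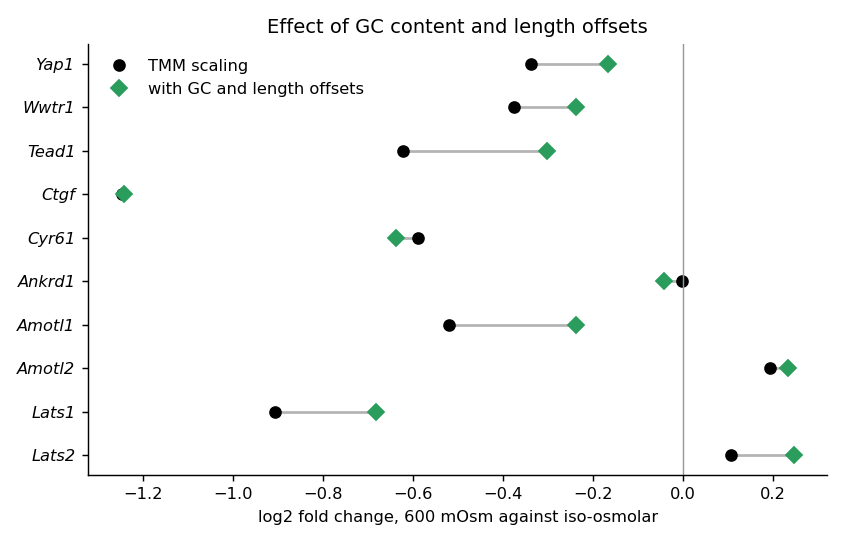
Log2 fold change of each of the 10 genes at 600 mOsm against iso-osmolar medium (horizontal axis) from the fit with TMM scaling (circles) and from the fit with GC content and length offsets (diamonds). The values of Yap1, Wwtr1, Tead1, Amotl1 and Lats1 move toward 0 and stay below it, while those of Ctgf and Cyr61 hardly move.

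The upstream Hippo regulators, a list of 25 genes for scaffolds, kinases and cell surface inputs, were called in both directions in each comparison. Of the 23 tested, 7 were called higher and 2 lower at 500 mOsm (median log2 fold change 0.11), 1 higher and 9 lower at 600 mOsm (median -0.13), and 2 higher and 12 lower at 600 against 500 mOsm (median -0.22). The shares over all genes tested were 13.2% higher and 14.8% lower at 500 mOsm, and 15.1% and 20.0% at 600 mOsm. At 600 against 500 mOsm they were 11.9% and 17.2%. Lower calls thus outnumbered higher ones over all genes in each comparison. The list went the same way in both comparisons of 600 mOsm, but at 500 mOsm its higher calls outnumbered the lower ones. Tnik and Dchs1 were too low to be tested. Among those called higher at 500 mOsm, the smallest p-values belonged to Fat4, an atypical cadherin at the cell surface, which rose by 0.85 (adjusted p = 5.15e-06 in edgeR), and to Rassf1, a scaffold that binds the MST kinases, which rose by 0.39 (adjusted p = 0.00472 in edgeR). Frmd6, the homologue of the fly gene expanded, fell at 500 mOsm (-0.35, adjusted p = 0.000902 in edgeR) and at 600 mOsm (-0.71, adjusted p = 3.34e-06 in edgeR). Limd1, an adaptor that inhibits LATS, was lower at 500 mOsm by -0.14 (adjusted p = 0.0491 in edgeR), a call lost in 8 of 9 fits that each left out 1 library (all but the third 600 mOsm library, adjusted p = 0.0544 to 0.189) and in every other alternative fit.

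Sav1, the adaptor that joins the MST and LATS kinases, had a mean FPKM of 21.9 ± 1.33 in the control libraries, 21.4 ± 0.499 at 500 mOsm and 11.3 ± 1.02 at 600 mOsm (SD, n = 3). It fell at 600 mOsm by 0.94 on the log2 scale (adjusted p = 6.07e-07 in edgeR), and by 0.91 relative to 500 mOsm (adjusted p = 9.78e-07 in edgeR). Fat4 was lower at 600 than at 500 mOsm by -0.87 (adjusted p = 5.72e-06 in edgeR), which became -0.47 with the GC content and length offsets. Taok2, a kinase that activates the MST kinases, was higher at 600 than at 500 mOsm (0.21, adjusted p = 0.0311 in edgeR). Taok2 lost its call in 3 of 9 fits that each left out 1 library (the third 500 mOsm library, the first at 600 mOsm and the third at 600 mOsm, adjusted p = 0.0937 to 0.107, log2 fold change 0.14 to 0.20). The counts of this list were the least stable, since the 7 genes called higher at 500 mOsm became 3 or 4 without any 1 control library, or without the first or the second 500 mOsm library. The 12 called lower at 600 against 500 mOsm became 7 without the third 600 mOsm library. With the GC content and length offsets, the 1 called higher at 600 mOsm against iso-osmolar medium became 5. The lower calls of that comparison numbered 9 with and without the offsets (19.2% and 20.0% of all genes).

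Of the TEAD factors other than Tead1 and the VGLL cofactors, which compete with YAP and TAZ for TEAD proteins, 5 of 7 genes were tested, with Vgll1 and Vgll2 too low. At 500 mOsm 2 were called higher and 1 lower, at 600 mOsm 0 higher and 1 lower, and at 600 against 500 mOsm 0 higher and 2 lower. Over all genes the shares were 13.2% and 14.8%, 15.1% and 20.0%, and 11.9% and 17.2% in the same order, and with 5 genes the single call at 600 mOsm equals the share of the whole table. Vgll4, which encodes an inhibitor of TEAD activity, had a mean FPKM of 25.7 ± 0.764 in the control libraries, 52.8 ± 1.41 at 500 mOsm and 26.4 ± 1.42 at 600 mOsm (SD, n = 3). It rose at 500 mOsm by a log2 fold change of 1.04 (adjusted p = 1.69e-08 in edgeR) and was lower at 600 than at 500 mOsm by -0.98 (adjusted p = 3.14e-08 in edgeR). Tead4 fell at both intensities, by 0.65 on the log2 scale at 500 mOsm (adjusted p = 4e-06 in edgeR) and by 0.72 at 600 mOsm (adjusted p = 2.02e-06 in edgeR). Tead3 rose at 500 mOsm by 0.36 (adjusted p = 0.00481 in edgeR) and was lower at 600 than at 500 mOsm by -0.27 (adjusted p = 0.0241 in edgeR). The latter call was lost in 4 of 9 fits that each left out 1 library (the first or second of either intensity, adjusted p = 0.0532 to 0.0848). The summed FPKM of the 4 TEAD genes was 55.5 to 55.8 in iso-osmolar medium, 52.4 to 53.2 at 500 mOsm and 43.2 to 43.8 at 600 mOsm, so the groups did not overlap. Tead1 made up 25.7% to 30.02% of that sum in iso-osmolar medium, 27.1% to 32.0% at 500 mOsm and 19.6% to 25.5% at 600 mOsm.

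The other YAP/TAZ target genes, 17 genes of a signature known from tumours, were called in both directions in each comparison. With Igfbp3 too low, 16 were tested, of which 5 were called higher and 3 lower at 500 mOsm (median log2 fold change 0.09), 2 higher and 10 lower at 600 mOsm (median -0.29), and 1 higher and 7 lower at 600 against 500 mOsm (median -0.19). The shares of all genes called higher and lower were 13.2% and 14.8% at 500 mOsm, 15.1% and 20.0% at 600 mOsm, and 11.9% and 17.2% between the intensities, so the 3 lower calls at 500 mOsm and the 2 higher calls at 600 mOsm lie near the background. Gadd45a, a stress-induced gene of growth arrest and DNA repair, had a mean FPKM of 2.56 ± 0.106 in the control libraries, 8.80 ± 0.674 at 500 mOsm and 1.91 ± 0.0938 at 600 mOsm (SD, n = 3). It rose at 500 mOsm by 1.78 (adjusted p = 1.47e-07 in edgeR) and was lower at 600 than at 500 mOsm by -2.18 (adjusted p = 3.83e-08 in edgeR). Foxf2, a forkhead transcription factor, fell at 500 mOsm (-1.65, adjusted p = 8.4e-07 in edgeR) and at 600 mOsm (-1.67, adjusted p = 9.01e-07 in edgeR). Fjx1, the homologue of the fly gene four-jointed, fell at 500 mOsm by 1.33 on the log2 scale (adjusted p = 9.62e-06 in edgeR). It was higher at 600 than at 500 mOsm by 0.76 (adjusted p = 0.00121 in edgeR). At 600 mOsm Fjx1 was still called lower than in iso-osmolar medium (-0.57, adjusted p = 0.00484 in edgeR).

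Nuak2, a kinase related to AMPK, was higher at 500 mOsm by 0.30 (adjusted p = 0.00303 in edgeR) and at 600 mOsm by 0.23 (adjusted p = 0.014 in edgeR). The call at 600 mOsm was lost without the second control library (0.17, adjusted p = 0.0672 in edgeR) or the third 600 mOsm library (0.21, adjusted p = 0.052 in edgeR). Ccdc80, a secreted matrix protein, was higher at 600 mOsm by 0.31 (adjusted p = 0.00642 in edgeR). Asap1, a GTPase-activating protein for Arf proteins, was lower at 600 mOsm by -0.64 against iso-osmolar medium (adjusted p = 4.26e-06 in edgeR) and by -0.61 against 500 mOsm (adjusted p = 6.86e-06 in edgeR). With the GC content and length offsets this list had 6 genes called higher and 8 lower at 600 mOsm, and 2 higher and 4 lower at 600 against 500 mOsm. The excess of lower over higher calls in it was smaller with that setting.

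**Figure D5:**
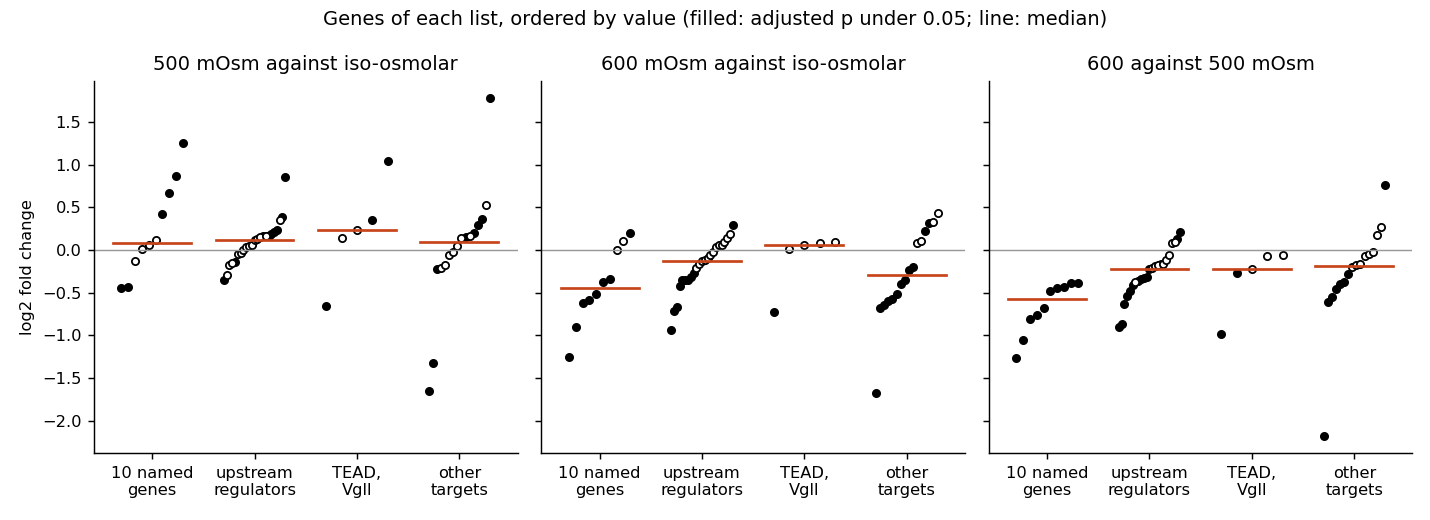
Log2 fold changes (vertical axis) of the genes of each list, ordered by value within the list, in the 3 comparisons, with filled points where edgeR's adjusted p was under 0.05 and a line at the median of the list. The 10 named genes have their lowest median, -0.58, at 600 against 500 mOsm, where each of them lies below 0. The TEAD and Vgll genes tested also all lie below 0 there (-0.98 to -0.06). The upstream regulators and the other targets hold points on both sides of 0.

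The label of the cells was checked against marker genes. The summed FPKM of 7 fibroblast markers was 4980 to 5060 in iso-osmolar medium, 4850 to 5080 at 500 mOsm and 5690 to 5760 at 600 mOsm, with Vim, Col1a1 and S100a4 as the most abundant. The markers of each other cell type summed to at most 3.83 FPKM per type in any library, but those of endothelium, blood cells and epithelium moved with the treatment at 500 mOsm. The 4 endothelial markers summed to 0.202 to 0.246 in iso-osmolar medium, 3.36 to 3.83 at 500 mOsm and 0.577 to 0.901 at 600 mOsm. Pecam1 had a mean of 0.0816 FPKM in the controls, 3.25 at 500 mOsm and 0.484 at 600 mOsm. In the same order, Cdh5 was at 0.140, 0.143 and 0.187 and Tek at 0.0033, 0.103 and 0.0116. Kdr was at 0, 0.0598 and 0.00847. The 4 blood cell markers summed to 2.31 to 2.55, 3.35 to 3.83 and 2.07 to 2.24 in the same order. These sums were mostly Csf1r, with Ptprc and Adgre1 at or near 0 and Itgam at means of 0.00921, 0.385 and 0.0322. The 4 epithelial markers rose from at most 0.081 in iso-osmolar medium to 0.787 to 0.863 at 500 mOsm, through Cdh1, with Krt5 at 0 in all libraries, and were at most 0.0878 at 600 mOsm. Of the 5 striated muscle markers, which bear on Ankrd1, Myog was at 0 in all libraries and the sum was at most 0.319 in any library. Of the fibroblast markers, 1 was called higher and 1 lower at 500 mOsm, and 4 were called higher and 1 lower at 600 mOsm. At 600 against 500 mOsm, 5 were called higher and 0 lower. Over all genes, the shares called higher and lower were 13.2% and 14.8% at 500 mOsm and 15.1% and 20.0% at 600 mOsm. At 600 against 500 mOsm they were 11.9% and 17.2%. Of the tested markers of other cell types, Pecam1, Tek, Itgam, Csf1r and Cdh1 were called higher at 500 mOsm, and Cdh5 was not. The part of these markers in the values of the 10 genes was not tested.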

How the data were processed

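RNA from 9 MEF libraries (3 per treatment) was enriched with poly-T beads and sequenced as paired-end reads of 150 bases. The submitters' processing notes name CASAVA 1.8 and STAR, with mm10 as the genome, and the counting tool and its use of strand are not given in the sources used here. The authors deposited 1 table with the count of reads on each gene per library, without normalization, and the FPKM the authors made from it with the gene length. It also holds the authors' group means, fold changes and p-values, which were not used.

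Counts were scaled by TMM (factors 0.974 to 1.01) and tested with the quasi-likelihood test of edgeR 4.0.16 in R 4.3.3 on the 13082 genes that passed filterByExpr, with treatment as the only factor and all 9 libraries in one fit. The Benjamini-Hochberg method was used for adjustment over these genes, with a threshold of 0.05. The standard error of a log2 fold change is its size divided by the square root of the test statistic F. The common biological coefficient of variation was 0.0756. FPKM was used for levels and for ratios of related genes, compared by exact permutation of libraries.

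The 10 genes were named in every comparison. In each comparison, 2 genes per list and direction were named, those of smallest p among the genes past the threshold. Some genes that this rule names are not reported here. The members and lists were chosen with earlier results of these data known. The alternatives were RLE factors, library size alone, no filter, at least 10 counts in every library, DESeq2 1.42.0, limma 3.58.1 on log2(FPKM + 1), only the 2 treatments compared, the replicate number as a block, a threshold of 0.01, FPKM + 1 in the ratios, and each library left out in turn. Offsets for GC content and length, from a smooth over the 99.5% of tested genes with a GENCODE M21 transcript, were chosen after the data were seen. Scripts were tested on simulated data. Promoter windows are those of RefSeq, and overlaps of exons are those of GENCODE M21. Shared sequence was searched with blastn 2.17.0 (at least 100 bases at 95% identity or more).

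Whether libraries with the same replicate number belong together could not be decided. Over 10310 genes, the mean correlation of deviations from the treatment means was -0.201 for the 9 pairs of libraries with the same number. For the 18 pairs with different numbers it was 0.102. Single pairs ranged from -0.544 to 0.459 with the same number and from -0.277 to 0.51 with different numbers. Such deviations cancel out within each treatment, which ties these means to each other, so they do not test pairing.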

Additional observations from a re-analysis of the deposited data

How the results depend on the processing

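The calls of the 10 genes held under most alternatives. Of 570 alternative values (30 values under 19 settings), 557 kept their direction and their side of the threshold, 8 changed sign, 2 gained a call and 3 lost one. The sign changes were in values near 0. For Wwtr1 at 500 mOsm it was -0.0067 without a filter, and the fits that left out 1 library gave -0.018 to 0.027, negative without the third control or the first 500 mOsm library. For Ankrd1 at 600 mOsm against iso-osmolar medium they were 3.415e-05 with RLE factors, 0.00091 without a filter, 0.0024 in a fit of only the 2 treatments compared, and -0.044 to 0.054 without 1 library, positive without the first control or the third 600 mOsm library. Lats1 at 500 mOsm did not pass a threshold of 0.01 (adjusted p = 0.0103 in edgeR). The number of the 10 genes called stayed at 6 at 500 mOsm, 7 to 8 at 600 mOsm and 10 between them when single libraries were left out. It was 7, 9 and 9 with the GC content and length offsets, whose effect on the long transcripts was the largest of any alternative for these genes. Leaving out 1 library kept the direction of every ratio of related genes. The log2 differences were 1.35 to 1.43, 0.65 to 0.81 and -0.73 to -0.57 for Amotl2 to Amotl1, 1.19 to 1.39, 0.92 to 1.14 and -0.37 to -0.16 for Lats2 to Lats1, and -0.12 to -0.081, -0.089 to -0.010 and 0.014 to 0.093 for Wwtr1 to Yap1, in the order 500 mOsm and 600 mOsm against iso-osmolar medium and 600 against 500 mOsm. At a threshold of 0.01, 2846 of 4594 genes stayed called at 600 mOsm and 2352 of 3810 between the treatments.

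The replicate number as a block, which the labels do not tie to a shared culture or day, gave 6, 8 and 10 of the 10 genes called, as without it, and changed none of their calls. With the block, 4 rather than 7 upstream regulators were called higher at 500 mOsm, 1 rather than 2 lower, and 0 rather than 2 higher at 600 against 500 mOsm, where Taok2 (adjusted p = 0.0719 in edgeR) lost its call. The log2 difference of the Lats2 to Lats1 ratio at 500 mOsm was 1.30 with the block (exact sign permutation, p = 0.25, the smallest that 3 pairs allow). Of the 532 alternative values for genes named from the lists, 488 kept their call, 44 lost it and 0 changed sign. At a threshold of 0.01, upstream regulators were 2 higher and 1 lower at 500 mOsm and 0 higher and 7 lower at 600 against 500 mOsm. With the offsets, 5 upstream regulators were called higher and 9 lower at 600 mOsm against iso-osmolar medium (18.4% and 19.2% of all genes). Against 500 mOsm, 4 were called higher and 12 lower with the offsets (14.9% and 16.8% of all genes). Without the third 600 mOsm library, 7 rather than 12 of them were called lower at 600 against 500 mOsm.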

Other observations

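The genes whose treatment profile was most like each of the 10 were found among the 8393 other tested genes whose average log2 CPM reached 3, as the smallest distance between profiles of 3 mean log2 CPM values, each centred on its mean. Since 3 treatments leave little room for profiles to differ, small distances are easy to reach among so many genes. Nearest to Cyr61 was Sox9, a transcription factor of cartilage and stem cells, at a distance of 0.017 log2 units. Its log2 fold changes were 0.69 at 500 mOsm and -0.58 at 600 mOsm. Nearest to Amotl2 were Sesn1, a stress-induced regulator of mTORC1, at 0.06 (1.21 and 0.24) and Pax8 at 0.11 (1.19 and 0.29). Close to Ctgf was Nav2 at 0.06 (-0.37 and -1.23). Nearest to Yap1 was Zc3h4 at 0.0047 and nearest to Wwtr1 was Traf6, an adaptor of innate immune signalling, at 0.00028. Tead1 had Sik3 at 0.011, Ankrd1 had Phf21a at 0.01, Amotl1 had Slc25a16 at 0.0027, Lats1 had Gm20204 at 0.027 and Lats2 had Mroh2a at 0.015. Within the 10 genes, the closest pair was Yap1 and Wwtr1 (0.0735), followed by Wwtr1 and Amotl1 (0.116) and by Yap1 and Amotl1 (0.178).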
